A study of Homo sapiens with 6 samples.

Results

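The oncofetal and pluripotency genes described here are 10 genes of fetal growth and stem cell identity, LIN28A, LIN28B, SALL4, SOX2, POU5F1, NANOG, HMGA2, IGF2BP1, IGF2BP2 and IGF2BP3. They were picked by name, and each was found as a row of a gene table of 19899 genes. The cells were COV434, an established human ovarian line with little BRG1 (encoded by SMARCA4), an ATPase that drives the SWI/SNF chromatin remodelling complex. Control cells received the empty plasmid pCDNA3-neo and BRG1 cells received PBJ5-BRG1, so that BRG1 was reexpressed. Both groups also carried pBABE-puro at a ratio of 10 to 6.25 plasmid to 1, and from 24 hours after transfection they were held for 3 days in puromycin at 2 to 3 µg/ml, which removes untransfected cells. RNA-seq was done on 3 samples of each group, and replicates carry the numbers 1 to 3. A fit that holds the replicate number constant is called the replicate block. The comparison asked how the level of these genes differed once BRG1 was back.

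LIN28A and LIN28B are RNA-binding proteins that keep let-7 microRNAs from maturing, and let-7 in turn silences mRNAs that include LIN28B, HMGA2 and the IGF2BP family. HMGA2 is a chromatin protein of embryonic growth, and IGF2BP1, IGF2BP2 and IGF2BP3 bind mRNAs and protect them from decay. SALL4, SOX2, POU5F1 (OCT4) and NANOG are transcription factors of pluripotent cells, and most of these genes are silent in adult tissues and return in tumours of embryonal type.

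The sequences through which let-7 could pair with these mRNAs are shown because they join several members in a single circuit. In 11 of 12 mature microRNAs of the let-7 family (RefSeq, GRCh38.p14) the seed, bases 2 to 8 from the 5′ end and capitalised here, had the same letters. Examples are the following.
hsa-let-7a-5p: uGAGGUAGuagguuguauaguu
hsa-let-7g-5p: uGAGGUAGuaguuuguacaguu
hsa-miR-98-5p: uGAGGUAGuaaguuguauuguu
The letters that pair with this seed, CTACCTC, were searched on the transcript strand only in the 3′ untranslated region of each gene's canonical transcript (GENCODE 44, GRCh38). They were present in 7 of the 10 members, 4 times each in LIN28B, HMGA2 and IGF2BP1, and once each in LIN28A, SALL4, IGF2BP2 and IGF2BP3. SOX2, POU5F1 and NANOG had no match in this window. Of all 19515 such regions 9.75% held a match. A site from each member that has a match is given with the 7 letters capitalised.
LIN28A: cacagcctattgaaCTACCTCa
LIN28B: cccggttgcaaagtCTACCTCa
SALL4: aagctttaatttatCTACCTCa
HMGA2: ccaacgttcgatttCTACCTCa
IGF2BP1: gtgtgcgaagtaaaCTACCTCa
IGF2BP2: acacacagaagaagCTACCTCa
IGF2BP3: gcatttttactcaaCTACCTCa
They lie at chr1:26427349-26427370 (plus strand) in LIN28A, chr6:105078813-105078834 (plus) in LIN28B, chr20:51782923-51782944 (minus) in SALL4 and chr12:65963299-65963320 (plus) in HMGA2. The IGF2BP sites lie at chr17:49051062-49051083 (plus), chr3:185644220-185644241 (minus) and chr7:23311795-23311816 (minus), in the order given above. Among other regions within 10% of its length, 24.8% of those like LIN28B held at least 1 match and 0.133% held as many as LIN28B. None of 1115 regions like HMGA2 and none of 341 like IGF2BP1 held as many as these genes. For the members with 1 match, 11.8% to 16.7% of like-length regions held at least 1. A match is a run of letters, and the microRNAs themselves were not analysed here.

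The 6 samples held 29699741 to 63613710 estimated counts each, and the members took 0.0246% to 0.0283% of them. SMARCA4 rose from 1439 to 1676 normalised counts in Control to 78589 to 108655 in BRG1 (log2 fold change 5.84, SE 0.18, DESeq2 adjusted p = 5.55e-216), a value that includes transcripts of the plasmid. Of the granulosa cell markers, FOXL2, AMHR2 and FSHR stayed at 3 counts or fewer in every sample, while 2 of the 5 tested were called higher by DESeq2, INHBB (13.9 ± 3.96 and 176 ± 65.9 normalised counts) and CYP19A1 (23.3 ± 8.03 and 322 ± 115). AMH stood at 295 ± 90.7 and 408 ± 59.8 and did not pass the test. Endothelial markers summed to 37.5 to 55.7 CPM (counts scaled to the library total) in Control and 139 to 154 in BRG1, with VWF, CDH5 and TEK higher and PECAM1 at 0.831 CPM or less. KDR, at 28.0 to 45.0 CPM in Control and 30.2 to 52.0 in BRG1, did not pass the test. Of 4 haematopoietic markers tested 1, HBB, was called higher, and CD3E stayed at 3 counts or fewer. PTPRC stood at 505 ± 167 and 519.7 ± 185 normalised counts, and CD68 at 1736 ± 699.6 and 2757 ± 812 (DESeq2 adjusted p = 0.222, or 0.0013 with the replicate block). Of 6 fibroblast markers 1 was called higher, PDGFRA (6.60 ± 3.38 and 66.8 ± 37.3), and their sum was 113 to 188 CPM in Control and 92.6 to 211 in BRG1. Over all 16342 genes tested DESeq2 called 10.7% higher and 1.78% lower. The part of these markers in the results below was not tested.

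COV434 expressed these genes at very unequal levels. Levels per length were counts per kilobase of canonical transcript, rescaled so that they summed to the same total in every sample. They are therefore not CPM divided by length. On this scale SALL4 stood at 35.3 ± 8.35 (SD, n = 3) in Control and IGF2BP3 at 32.2 ± 4.33. These neighbours overlapped. LIN28B followed at 20.3 ± 2.37 and IGF2BP2 at 14.2 ± 1.25. HMGA2 was lower at 2.76 ± 0.497 and IGF2BP1 at 1.62 ± 0.466. SOX2 at 0.362 ± 0.128 and POU5F1 at 0.268 ± 0.0676 overlapped, and LIN28A and NANOG were at the limit of detection. Across the 6 samples SALL4 lay between the 73.7th and 83.5th percentile of genes on this scale, and SOX2 between the 25.7th and 36.9th. With the length of all exons together, an alternative added after the data were seen, LIN28B (34.1) stood above IGF2BP3 (29.6) and IGF2BP1 (2.72) above HMGA2 (1.38), so these orders depend on the length used. In BRG1 cells IGF2BP3 stood at 36.0 ± 3.21, SALL4 at 35.8 ± 10.8, LIN28B at 22.5 ± 3.06 and IGF2BP2 at 21.6 ± 2.16 on the canonical length. Within each of these pairs, IGF2BP3 with SALL4 and LIN28B with IGF2BP2, the samples overlapped. HMGA2 stood at 2.81 ± 1.36 and IGF2BP1 at 1.74 ± 0.827 in BRG1, also overlapping, and SOX2 at 0.350 ± 0.174 and POU5F1 at 0.221 ± 0.0330.

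**Figure D1:**
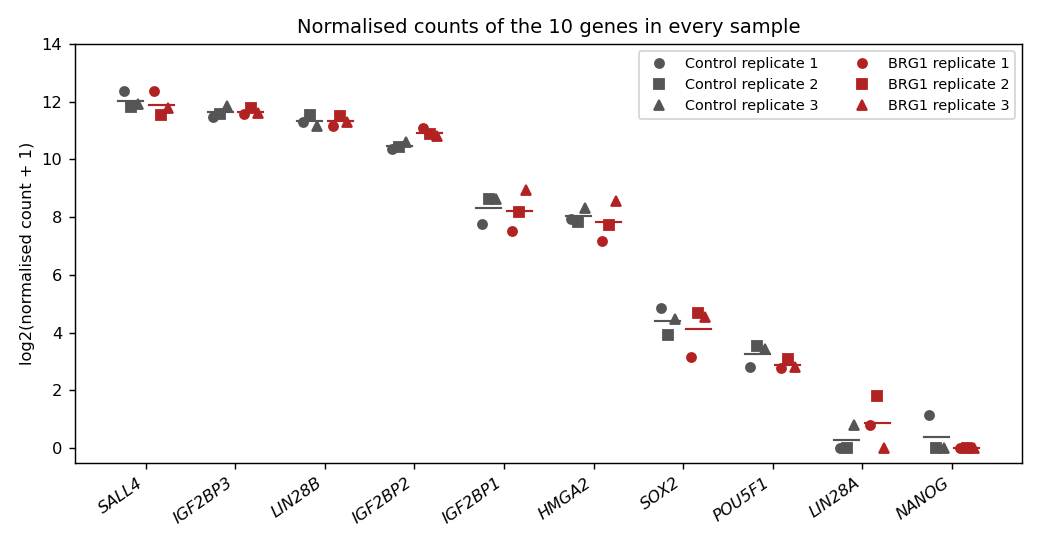
Normalised counts of each member on a log2(count + 1) axis, 1 point per sample, Control beside BRG1. LIN28A and NANOG sit near 0 in every sample, and IGF2BP2 is the member with a DESeq2 adjusted p whose groups do not overlap.

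Apart from IGF2BP2, no member passed the test after BRG1 reexpression. Of the 8 members with a DESeq2 adjusted p, 1 was called higher (12.5%, against a background of 10.7% of the 16342 genes tested, or 13.0% with the replicate block) and 0 lower (background 1.78%, or 6.39% with the replicate block). The member called was IGF2BP2, and by DESeq2 and edgeR 0 members had an unadjusted p under 0.05 in the lower direction. The share called is near the background. By edgeR's quasi-likelihood test 0 of the 7 members tested were called in either direction (backgrounds 9.57% higher and 1.02% lower), and with the replicate block edgeR called IGF2BP2 higher and none lower (backgrounds 13.7% and 5.68%). Over the 8 members the log2 fold changes had a median of -0.09, against -0.01 over all genes tested. Of the 8 members 2 lay above 0, and of the 16342 genes tested 7966 did. IGF2BP2 was also the member whose groups did not overlap, where 16.7% of genes had every BRG1 sample above every Control sample and 9.77% every one below.

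LIN28B, the more abundant LIN28 paralogue here, spans chr6 104936616 to 105083332 on the plus strand. It stood at 2509, 2949 and 2273 normalised counts in Control replicates 1 to 3 and at 2269, 2924 and 2494 in BRG1. The groups overlapped, with replicate 2 highest in each. The libraries do not keep strand, and 3.05% of its exonic bases overlap the antisense gene LIN28B-AS1. The log2 fold change was -0.01 (SE 0.18, DESeq2 adjusted p = 0.991), and the 95% interval of the fold ran from 0.781 to 1.27, or 0.850 to 1.16 with the replicate block. Its paralogue LIN28A (chr1 26410817 to 26429728) had at most 3 counts in any sample and 0 in 3 of them. In those 3 samples LIN28B per length was at least 407 to 612 times the limit that a count of 0 allows for LIN28A.

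HMGA2 (chr12 65824460 to 65966291, plus strand), the let-7 target with 4 matches, stood at 246, 229.8 and 318 normalised counts in Control and at 142, 213 and 375 in BRG1. BRG1 samples were both the lowest and the highest of the 6. The log2 fold change was -0.13 (SE 0.37, DESeq2 adjusted p = 0.927), with a 95% interval of the fold from 0.550 to 1.51. Intervals this wide leave moderate changes in either direction undetectable with these samples.

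In the IGF2BP family 1 of 3 members was called. IGF2BP2 (chr3 185643130 to 185825042, minus strand), the member of the family that adult tissues also express, stood at 1323, 1367 and 1563 normalised counts in Control and at 2161, 1867 and 1802 in BRG1. In the IGF2BP2 transcript 18.6% of 31-base stretches also occur in other genes. Every BRG1 sample was above every Control sample, and the ratio within replicate numbers 1, 2 and 3 was 1.63, 1.37 and 1.15. Of genes with counts in every Control sample 24.6% were higher in all 3 pairs and 29.4% were lower in all 3. The fold was 1.37 (95% interval 1.11 to 1.69, log2 fold change 0.45, SE 0.15, DESeq2 adjusted p = 0.0292). Whether IGF2BP2 was called depended on the method and on the samples kept. Its log2 fold change ranged from 0.37 to 0.53 when each sample was left out in turn. The adjusted p was 0.0744 by edgeR and 0.0756 by limma-voom, but 0.0114 by DESeq2 and 0.0282 by edgeR with the replicate block. Without Control replicate 1 the DESeq2 adjusted p was 0.206, without Control replicate 2 it was 0.187, without BRG1 replicate 1 it was 0.179 and without BRG1 replicate 2 it was 0.105.

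IGF2BP3 (chr7 23310209 to 23470491, minus strand), the family's most abundant member on the canonical length, stood at 2863, 3059 and 3714 normalised counts in Control and at 3019, 3527 and 3137 in BRG1. Control replicate 3 was the highest sample and Control replicate 1 the lowest, so the BRG1 samples fell within the Control range. The log2 fold change was 0.01 (SE 0.16, DESeq2 adjusted p = 0.991), with a 95% interval of the fold from 0.804 to 1.26. With the length of all exons together its level per length overlapped that of IGF2BP2 in BRG1 cells, and in BRG1 replicate 1 it was the lower of the pair (30.4 against 34.9). In its transcript 51.6% of 31-base stretches also occur in other genes and 17.8% of its exonic bases overlap MALSU1, so its count is uncertain. IGF2BP1 (chr17 48997385 to 49056145, plus strand) stood at 216, 392 and 394 normalised counts in Control and at 185, 291 and 489.6 in BRG1. Its groups overlapped, with replicate 1 lowest in each, and the log2 fold change was -0.06 (SE 0.40, DESeq2 adjusted p = 0.968).

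**Figure D2:**
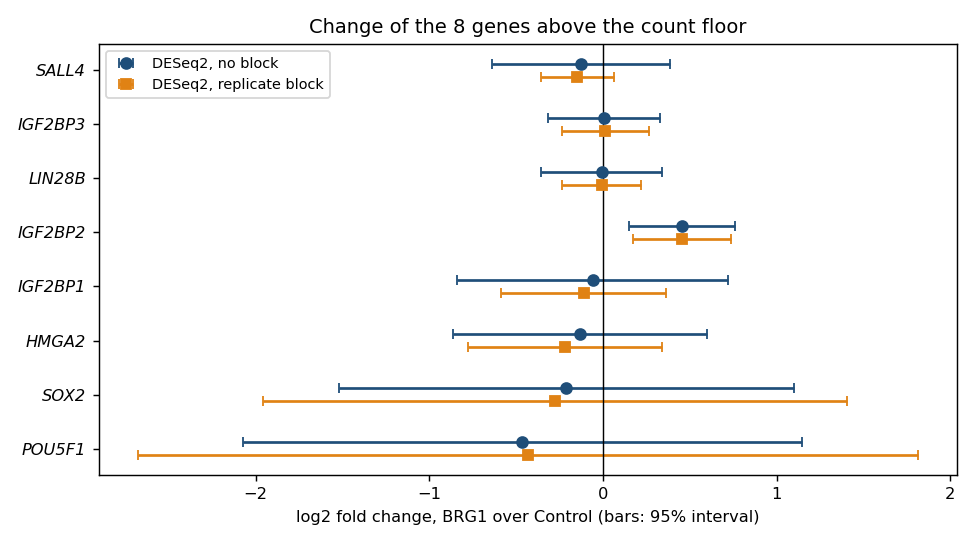
Log2 fold change of BRG1 over Control with its 95% interval for each member that was not at 3 counts or fewer in both groups, from DESeq2 without and with the replicate block. The interval of IGF2BP2 lies above 0 in both fits, and those of the other members span 0.

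As a share of the family's summed level per length (canonical length), IGF2BP3 took 66.8%, 66.3% and 68.0% in Control and 57.3%, 63.8% and 60.6% in BRG1. IGF2BP2 took 30.8%, 29.6% and 28.5% in Control and 41.0%, 33.7% and 34.8% in BRG1. For both genes the groups did not overlap. Shares of a sum depend on each other, so these separations are not independent results. Among single genes tested, 16.7% had every BRG1 sample above every Control sample and 9.77% every one below. The shares also depend on the length used. With the length of all exons together IGF2BP3 stood below IGF2BP2 in BRG1 replicate 1 (30.4 against 34.9). IGF2BP3 itself did not pass the test (log2 fold change 0.01, DESeq2 adjusted p = 0.991). The log2 ratio of IGF2BP2 to IGF2BP3 was -1.17 ± 0.0681 (SD) in Control and -0.73 ± 0.225 in BRG1, a difference of 0.44 that was positive in 3 of 3 pairs. A two-sided exact permutation test gave p = 0.1, the smallest that 3 against 3 samples allow, and 0.3 after Benjamini-Hochberg adjustment over the 3 ratios of the family. The ratio of IGF2BP1 to IGF2BP2 differed by -0.57 (exact permutation p = 0.4, adjusted 0.6; -0.15 without BRG1 replicate 1 and -0.98 without BRG1 replicate 3) and that of IGF2BP1 to IGF2BP3 by -0.13 (exact permutation p = 0.8, adjusted 0.8).

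**Figure D3:**
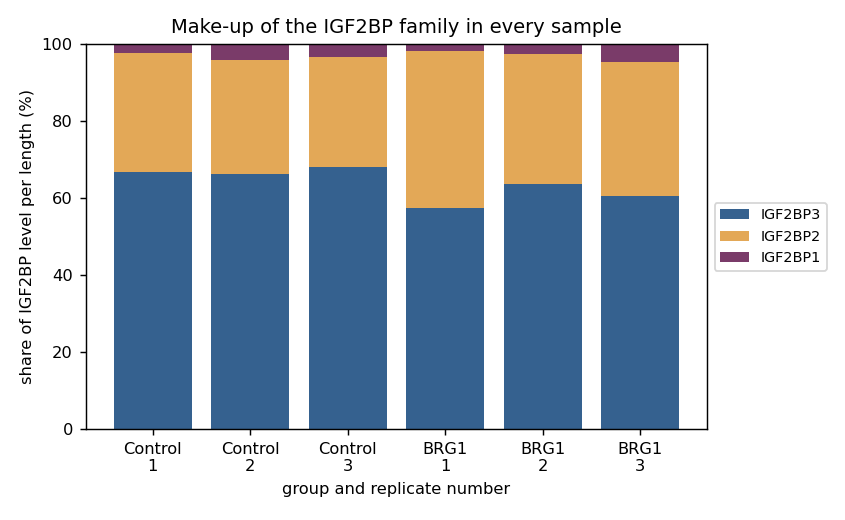
Share in percent of the summed IGF2BP level per length (canonical length) taken by each of the 3 genes, per sample. IGF2BP3 takes 66.3% to 68.0% in Control and 57.3% to 63.8% in BRG1, and IGF2BP2 takes 28.5% to 30.8% and 33.7% to 41.0%.

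Among the pluripotency factors SALL4 alone was abundant. SALL4 (chr20 51782331 to 51802521, minus strand), a zinc finger factor of fetal and germ cell tumours, stood at 5286, 3628 and 3901 normalised counts in Control and at 5248, 3007 and 3481 in BRG1. Replicate 1 was the highest sample of each group, and the groups overlapped. The log2 fold change was -0.13 (SE 0.26, DESeq2 adjusted p = 0.888), with a 95% interval of the fold from 0.642 to 1.31, or 0.780 to 1.04 with the replicate block. SOX2 (chr3 181711925 to 181714436, a single exon) stood at 28.0, 14.1 and 21.2 normalised counts in Control and at 7.98, 24.9 and 22.4 in BRG1. The lowest SOX2 sample was BRG1 replicate 1, the other BRG1 samples lay within the Control range, and the log2 fold change was -0.21 (SE 0.67, DESeq2 adjusted p = 0.936).

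POU5F1 (chr6 31164337 to 31180731, minus strand) stood at 6.09, 10.6 and 9.84 normalised counts in Control and at 5.80, 7.48 and 5.97 in BRG1. The groups overlapped through Control replicate 1, and the log2 fold change was -0.46 (SE 0.82, DESeq2 adjusted p = 0.864). Of its 31-base stretches 77.9% also occur in other genes, among them POU5F1B, which stood at 47.9 ± 21.2 normalised counts in Control and 47.9 ± 17.3 in BRG1, so these few counts are uncertain. NANOG (chr12 7787794 to 7799146, plus strand) had 0 counts in every sample but Control replicate 1, where it had 1. Of its 31-base stretches 41.2% also occur in other genes. A count of 0 allows up to 0.0472 to 0.101 CPM over the 6 samples, so a difference in NANOG or LIN28A was not detectable at this depth.

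The genes around the circuit were counted in 6 lists of 115 genes, of which 114 were found and 98 had a DESeq2 adjusted p. Of these 98, DESeq2 called 16 higher and 1 lower, edgeR 12 and 1, and with the replicate block DESeq2 called 22 and 9. The backgrounds are 10.7% higher and 1.78% lower by DESeq2, 9.57% and 1.02% by edgeR, and 13.0% and 6.39% by DESeq2 with the replicate block, and they hold for each list that follows. Their median log2 fold change was 0.05. At an unadjusted p under 0.05, 3 of them were lower by DESeq2 and 5 by edgeR, of which 0 were known let-7 targets, oncofetal markers or IGF2BP-bound mRNAs. The 18 genes of the let-7 axis and of small RNA processing held 1 higher and 1 lower by DESeq2. With the replicate block DESeq2 called 1 higher and 2 lower, and edgeR 1 higher and 3 lower. HNRNPA1, a splicing factor that also binds let-7 precursors, fell from 92692 ± 1637 to 65811 ± 7900 normalised counts (log2 fold change -0.49, SE 0.14, DESeq2 adjusted p = 0.0045), a call that was lost without Control replicate 1 (0.0519) and without BRG1 replicate 2 (0.0700). ADAR, which edits adenosine to inosine in double-stranded RNA, rose from 21478 ± 2142 to 42539 ± 2628 (log2 fold change 0.99).

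Of 27 known let-7 target mRNAs 5 rose and 0 fell by DESeq2, with a median log2 fold change of -0.08, while edgeR called 3 higher and DESeq2 with the replicate block 8 higher and 3 lower (background 10.7% higher and 1.78% lower, or 13.0% and 6.39% with the block). Without BRG1 replicate 1, and likewise without BRG1 replicate 2, DESeq2 called 3 higher. MYCN, a MYC family factor of embryonal tumours, stood at 11.0, 5.86 and 2.27 normalised counts in Control and at 644, 274 and 197 in BRG1. All BRG1 samples were above all Control samples (log2 fold change 5.94, SE 0.62). CCND1, the cyclin D1 gene, rose from 1039 ± 549 to 7080 ± 4400 (log2 fold change 2.77). CCND2 (1.39) and PLAGL2 (0.39) rose by DESeq2 but had edgeR adjusted p values of 0.0616 and 0.111. The DESeq2 call of CCND2 was lost without BRG1 replicate 1 (adjusted p = 0.0892) or BRG1 replicate 2 (0.0890), and that of PLAGL2 without any single sample but BRG1 replicate 3 (adjusted p 0.0529 to 0.226). IL6, an inflammatory cytokine, stood at 1.22, 7.04 and 3.03 normalised counts in Control and at 782, 117 and 29.9 in BRG1, so that its BRG1 samples differed widely. MYC, at 9344 ± 2780 and 11298 ± 3347, had a DESeq2 adjusted p of 0.738 and of 0.0129 with the replicate block. By edgeR with the block the adjusted p of MYC was 0.0609. Over all genes with a 3′ untranslated region, the 1627 tested genes with at least 1 seed match had a median log2 fold change of -0.01 and the 13474 with 0 matches also -0.01. Of these groups 11.4% and 11.0% were called higher.

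In the pluripotency network 3 of 19 genes tested rose and 0 fell by DESeq2 (background 10.7% and 1.78%), with a median log2 fold change of 0.22, or 0.36 with genes at the floor of 3 counts in 1 group set to their bound. KLF5, a Krüppel-like factor, rose from 188 ± 74.2 to 2510 ± 1314 normalised counts (log2 fold change 3.74) and PODXL, a sialomucin of the cell surface, from 567 ± 68.0 to 8164 ± 4266 (3.85). The other was ESRRB, at 2.34 ± 1.15 and 20.7 ± 2.89, a call lost without BRG1 replicate 2 (DESeq2 adjusted p = 0.0676). With the replicate block 5 genes of this network were called higher and 2 lower by DESeq2. Among 17 oncofetal and germ cell markers tested 3 rose and 0 fell by DESeq2 (background 10.7% and 1.78%), with a median of 0.61, or 0.18 with such genes at their bound. By edgeR 2 were called higher, by DESeq2 with the replicate block 4 higher and 1 lower, and without Control replicate 1 DESeq2 called 5 higher. CEACAM6, a cell adhesion antigen, was at 0 counts in Control and at 51.5, 57.3 and 61.2 normalised counts in BRG1, at least 18.0-fold higher against a floor of 3 counts per library. ALPP, the placental alkaline phosphatase, was also at 0 counts in Control and at 26.8, 9.97 and 7.46 in BRG1, at least 4.69-fold higher, but was too low for edgeR and lost its DESeq2 call without BRG1 replicate 1 (adjusted p = 0.168). TPBG, the 5T4 antigen, rose from 46.8 ± 16.8 to 134 ± 44.0 (log2 fold change 1.53, DESeq2 adjusted p = 0.0022, and 0.101 without BRG1 replicate 2). The classical fetal liver genes AFP (454 ± 189 and 418 ± 117), GPC3 (3081 ± 828 and 3276 ± 1233) and IGF2 (159 ± 54.5 and 180 ± 28.7) did not pass the test.

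Among 14 paralogues of the members tested, DESeq2 called 2 higher and 0 lower, edgeR 1 higher, and DESeq2 with the replicate block 4 higher. Without Control replicate 3, BRG1 replicate 1 or BRG1 replicate 2 DESeq2 called 1. POU3F1, a POU factor of neural and epidermal cells, rose from 16.0 ± 5.03 to 207 ± 121 normalised counts (log2 fold change 3.68), and SALL3 stood at 18.2 ± 6.97 and 66.3 ± 39.2 (DESeq2 adjusted p = 0.0185, edgeR 0.0785). The SALL3 call was lost without Control replicate 2 (0.124), Control replicate 3 (0.101), BRG1 replicate 1 (0.344) or BRG1 replicate 2 (0.133). Of 10 mRNAs that IGF2BP proteins bind or stabilise 2 rose and 0 fell by DESeq2. With the replicate block DESeq2 called 3 higher and 1 lower, the lower gene being SRF (adjusted p = 0.0026). CD44, the hyaluronan receptor, rose from 56.5 ± 17.1 to 6143 ± 3738 (log2 fold change 6.77), and FSCN1, the actin bundling protein fascin, from 3708 ± 527 to 10406 ± 4217 (1.49). ACTB, a classical target of IGF2BP1, stood at 259734 ± 10994 and 291054 ± 26349 (log2 fold change 0.16, DESeq2 adjusted p = 0.576).

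**Figure D4:**
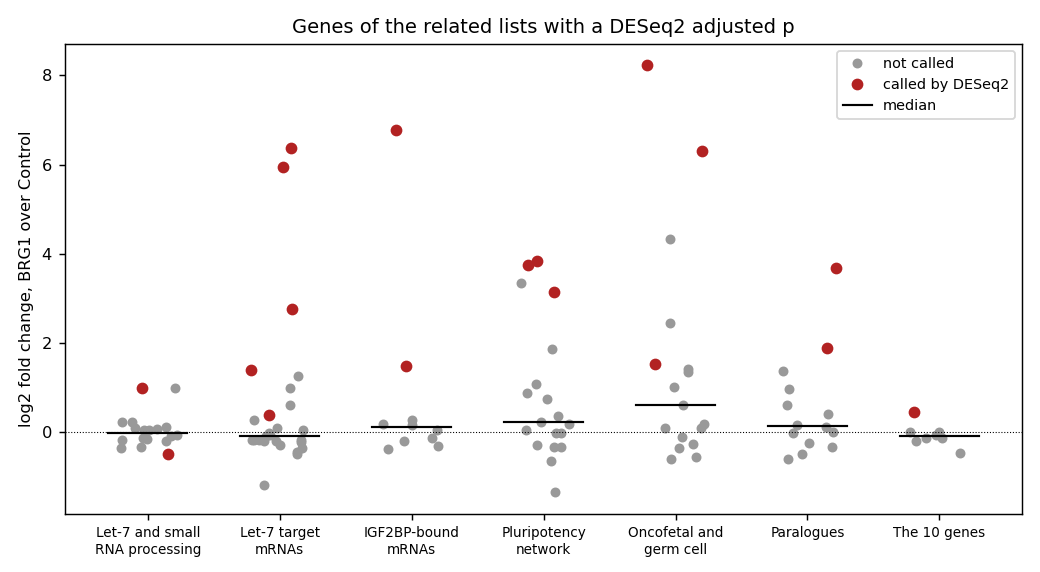
DESeq2 log2 fold change of BRG1 over Control for each tested gene of the 6 related lists and for the members, 1 point per gene. The members lie between -0.46 and 0.45 with IGF2BP2 as the called gene, and the let-7 targets hold 5 called genes, all above 0.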

How the data were processed

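RNA from 3 Control and 3 BRG1 samples of COV434 cells was sequenced by the authors (reads of 78 bases). Per the study's methods reads were aligned with STAR 2.5.3a and quantified with Salmon 0.8.2, and tximport gave a value per gene. What the authors deposited are estimated counts, rounded here to whole numbers. Totals were 37952466, 40400292 and 61519212 in Control and 63613710, 54451035 and 29699741 in BRG1. Genes with 0 counts in all samples were dropped. DESeq2 1.42.0, the study's tool, was the main test (adjusted p under 0.05), with edgeR 4.0.16 and limma 3.58.1 (R 4.3.3) as alternatives. DESeq2 and edgeR were tested on simulated data that held no effect of replicate number and fewer changed genes than were called here. There the false share among the calls exceeded the threshold for DESeq2 by more than for edgeR. That share depends on how many genes change, so its size does not carry over to these data. Replicate numbers paired the samples. Deviations from group means correlated at 0.341, 0.298 and 0.459 for the same number, against -0.362 to 0.0694 for unlike numbers. Taking deviations from group means lowers the values for unlike numbers where those for the same number are positive. Part of this contrast is therefore built in. The main test, and the fits that left out a sample, did not use the pairing by replicate number. The replicates are described as biological, and p-values measure the spread between these samples only. The members and gene lists were chosen with earlier results of these data known. Named list genes were those called (at most 6 a list, then the largest changes among means of 50 or more) plus the uncalled genes of highest mean, from which examples are printed. Other genes printed were chosen after their values were seen. Levels per kilobase used canonical transcripts of GENCODE 44, which gave a length to 91.5% of genes. Floors of 3 counts cover counting error only. Alternatives were other scalings, count filters, pseudocounts, the replicate block and leaving out each sample. No protein sequence was used here.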

Additional observations from a re-analysis of the deposited data

How the results depend on the processing

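The call of IGF2BP2 as the single member higher with BRG1 became 0 members with edgeR and 0 with limma-voom, and 0 to 1 when each sample was left out in turn; the replicate block kept 1. Genes called lower numbered 291, against 1022 with the replicate block, 146 with edgeR, 809 with edgeR and the replicate block, 169 with limma-voom, 163 with total-count scaling and 117 (without BRG1 replicate 2) to 596 (without BRG1 replicate 3) in leave-one-out fits. Related list genes called lower numbered 1, against 9 and 6 with the replicate block in DESeq2 and edgeR and 0 to 2 in leave-one-out fits. Log2 fold changes of uncalled members near 0 changed sign: LIN28B was 0.041 with total-count scaling, and IGF2BP3 was -0.0050 with edgeR, -6.7e-05 with edgeR and the replicate block, -0.010 with limma-voom and -0.0094 with TMM factors. Leave-one-out ranges were -0.11 to 0.10 for LIN28B, -0.40 to 0.051 for SALL4, -0.51 to 0.17 for SOX2, -0.58 to 0.14 for HMGA2, -0.49 to 0.22 for IGF2BP1 and -0.073 to 0.12 for IGF2BP3. For IGF2BP2 the range was 0.37 to 0.53. Leave-one-out differences in the IGF2BP1 to IGF2BP3 ratio ranged from -0.50 to 0.17 and in the IGF2BP1 to IGF2BP2 ratio from -0.98 to -0.15. The cause of these changes was not tested, except that leave-one-out fits hold fewer samples. With the replicate block the IGF2BP2 to IGF2BP3 ratio gave an exact permutation p = 0.25, the smallest that 3 pairs allow, so that this test cannot pass the threshold. No setting moved the median of all genes by over 0.1 on the log2 scale. The few counts of SOX2, POU5F1, NANOG and LIN28A, and the spread of HMGA2 and IGF2BP1 between replicates, limit what could be detected for these members.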
